A study of Drosophila melanogaster with 3 samples.

Results

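Binding of CG18599, a homeodomain protein, was examined at Mef2 and 8 other fly genes of mesoderm and muscle regulation: tin, bin, bap, lmd, twi, nau, Him and zfh1. The 9 genes, among 13945 protein-coding genes, were chosen by name with earlier results of these data known, among them the number of peak summits at Mef2. Every summit of the list of reproducible peaks was taken that lay in the span of one of these genes, or whose nearest transcription start site (TSS) within 10 kb was theirs. That list, made with the irreproducible discovery rate (IDR) step and called the IDR list here, holds 8858 peaks, of which 22 met the rule. The numbers and ranks of these 22 summits therefore describe the genes and were not tested. The chromatin came from whole fly embryos of pooled sex, aged 0 to 24 h, of a transgenic line that stably expresses CG18599 with green fluorescent protein (GFP) at its C-terminal end. Sonication gave fragments of 200 to 800 bp, and an anti-GFP antibody pulled down the fusion protein. All 3 biological replicates form 1 group of the same line. The promoter that drives the fusion is not given in the sources used here, and no control sample was analysed here.

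In the fly embryo, Twist (twi) sets up the mesoderm and switches on both Mef2 and tinman (tin). Tinman then acts in the dorsal mesoderm, upstream of bagpipe (bap) and of the heart, and bagpipe and biniou (bin) direct the visceral muscle of the gut. The MADS-box factor Mef2 activates muscle differentiation genes in all muscle types. Its gene is known for many separate enhancers spread over a long first part of the gene. Lame duck (lmd) activates Mef2 in fusion-competent myoblasts, Him restrains Mef2 activity in muscle progenitors, zfh1 encodes a zinc-finger and homeodomain repressor, and nautilus (nau) is the fly relative of vertebrate MyoD.

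The 101 bp around each summit of bin, tin, zfh1, lmd and nau are shown here because they are the places recovered at these genes. They were read from the RefSeq Release 6 assembly, the build of the dm6 peak lists, on the strand of the gene and from 5′ to 3′. Capitals mark the homeodomain core TAAT on either strand, which reads ATTA when it lies on the opposite one. The number after each gene name is the rank of the peak in the IDR list by the authors' signal value, with 1 the strongest.
bin, rank 399, chr3L:6989172-6989272, plus strand: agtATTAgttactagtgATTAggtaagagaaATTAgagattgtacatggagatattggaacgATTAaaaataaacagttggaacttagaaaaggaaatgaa
bin, rank 556, chr3L:6989379-6989479, plus strand: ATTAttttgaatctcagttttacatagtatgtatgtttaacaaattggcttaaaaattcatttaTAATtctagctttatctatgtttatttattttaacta
lmd, rank 5058, chr3R:23028680-23028780, minus strand: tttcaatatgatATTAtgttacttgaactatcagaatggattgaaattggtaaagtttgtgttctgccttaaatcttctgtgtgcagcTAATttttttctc
nau, rank 5921, chr3R:23714006-23714106, minus strand: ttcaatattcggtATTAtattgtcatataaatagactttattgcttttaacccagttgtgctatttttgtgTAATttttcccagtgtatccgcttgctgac
tin, rank 504, chr3R:21378734-21378834, plus strand: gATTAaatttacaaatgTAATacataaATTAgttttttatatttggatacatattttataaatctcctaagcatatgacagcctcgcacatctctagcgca
zfh1, rank 413, chr3R:30781729-30781829, plus strand: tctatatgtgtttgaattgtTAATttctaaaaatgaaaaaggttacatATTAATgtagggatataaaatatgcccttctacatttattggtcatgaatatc
zfh1, rank 2791, chr3R:30761414-30761514, plus strand: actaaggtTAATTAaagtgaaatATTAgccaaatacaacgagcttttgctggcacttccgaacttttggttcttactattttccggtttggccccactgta
zfh1, rank 6496, chr3R:30767255-30767355, plus strand: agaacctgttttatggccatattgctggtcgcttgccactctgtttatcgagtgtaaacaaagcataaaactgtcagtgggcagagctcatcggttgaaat

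The 4 strongest peaks at these genes each held 2 to 4 copies of the core in this window. The weaker peaks held similar numbers, with 3 at zfh1 rank 2791 and 2 each at lmd and nau. Only the weakest of the zfh1 summits held 0. The stronger bin window has 4 copies spread from its start past its middle, while the copies of tin all lie in the upstream part of its window. At zfh1 the second window carries the palindrome TAATTA. These letters describe the windows and do not show which bases were bound. Over all 22 summits the core lay within 50 bp of 16, or 72.7%. In the 44 windows of the same width centred 500 bp to either side of these summits it was at 68.2%. At Mef2, where summits lie close together, some of these flanking windows cover a neighbouring summit. Of all IDR summits 71.8% had it, and 59.5% of their flanking windows.

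A summit was found at 6 of the 9 genes, or 66.7%, against 31.9% of all protein-coding genes by the same rule. Mef2 had 14 summits, zfh1 3, bin 2, and tin, lmd and nau 1 each, while bap, twi and Him had 0. The embryos were whole, so binding in few cells and weak binding in many cells cannot be told apart. Longer genes had a summit more often. Of the genes with a span under 10 kb, 25.2% had a summit, and 4 of the 6 short members had one. Among genes as long as Mef2 or longer the share was 87.0%, and among those as long as twi or longer it was 87.1%. When a summit counted only for the gene of its nearest TSS, 5 of the 9 genes had one, without nau, against 29.3% of all genes.

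**Figure D1:**
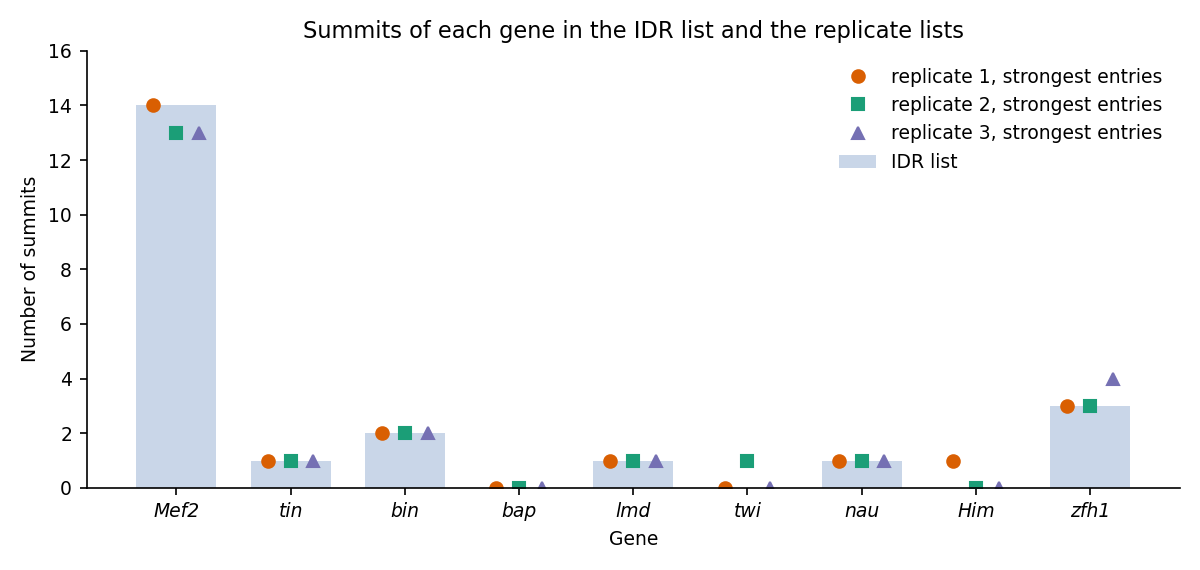
Number of summits assigned to each of the 9 genes (vertical axis) in the IDR list (bars) and in the strongest 8858 entries of each of the 3 replicate lists (points). Mef2 stands at 13 or 14 in every list, and no other gene passes 4.

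The replicates gave almost the same numbers. Each replicate list was limited to its strongest 8858 entries, the length of the IDR list, and is called the top list. Mef2 had 14, 13 and 13 summits in the top lists of replicates 1, 2 and 3, a mean of 13.3 ± 0.577 (SD, n = 3). The zfh1 gene had 3, 3 and 4, or 3.33 ± 0.577 (SD, n = 3). These counts were not matched by position: 1 zfh1 summit of the IDR list ranked 15439 in replicate 3, outside its top list. In every replicate bin had 2 summits, tin, lmd and nau had 1, and bap had 0. The replicates differed at the genes without an IDR summit: twi had 1 summit in replicate 2 alone and Him 1 in replicate 1 alone. Over the full lists of 30000 entries, which include background regions, Mef2 had 26, 27 and 28 entries and zfh1 had 11, 11 and 9. At least 1 top-list summit was present at 31.9%, 33.1% and 31.4% of all protein-coding genes in replicates 1, 2 and 3.

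Mef2 (FBgn0011656) occupies 45363 bp of arm 2R, from 9913496 to 9958858 on the minus strand. Its 11 transcripts start at 3 TSSs, 0, 14.09 and 29.24 kb from the first, and coding sequence begins at 37.2 kb. The 14 summits covered 36119 bp, from 40 bp upstream of the first TSS to 36.08 kb inside the gene. Of these, 1 lay at the first TSS, 7 between the first and second TSS, 4 between the second and the third, and 2 between the third TSS and the first coding base. No IDR summit lay in the last 9.28 kb, which hold the coding exons. By the gene models 12 of the 14 were intronic, 1 was in an untranslated exon at 15.87 kb, and 1 was between genes.

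**Figure D2:**
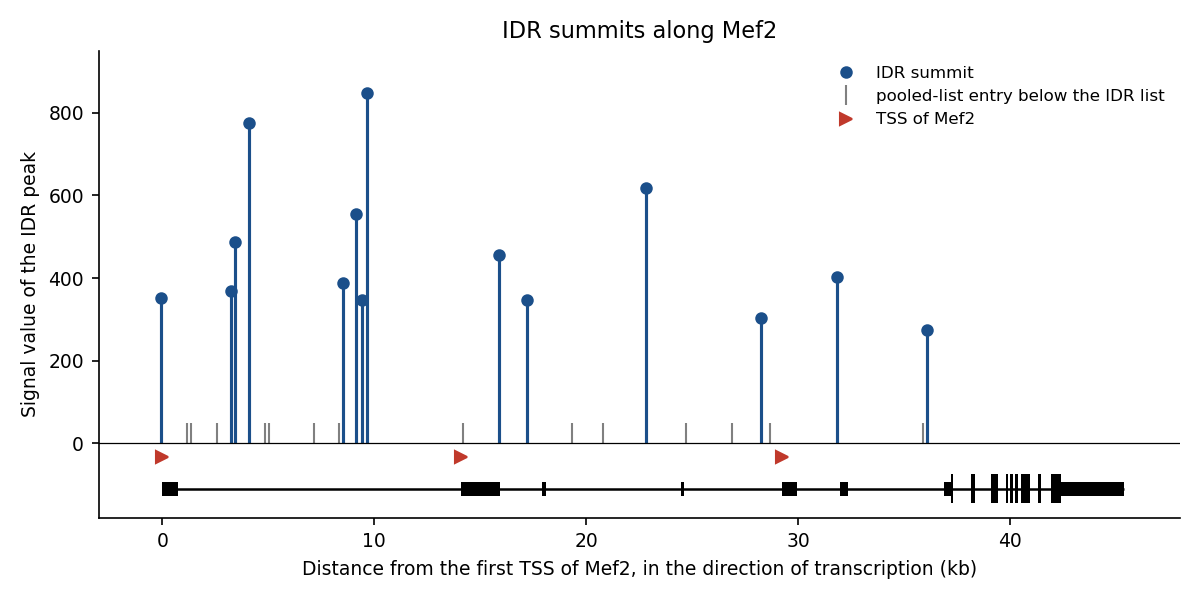
Authors' signal value of each of the 14 IDR peaks of Mef2 (blue stems) against the distance of its summit from the first TSS in kb, with exons in black (taller where coding), the 3 TSSs in red, and grey ticks for the 14 pooled-list entries below the IDR list. Signal values run from 274 to 847, the highest at 9.65 kb, and the summits stop at 36.08 kb, before the coding exons.

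The strongest Mef2 peak (chr2R:9949039-9949388) had its summit in the first intron, 9.65 kb from the first TSS and 4440 bp upstream of the second. It ranked 1449 in the IDR list, and 1362, 1078 and 2088 in replicates 1, 2 and 3. The next (chr2R:9954687-9954918), at 4.08 kb, ranked 1663 in the IDR list and 1897, 1671 and 1231 in the replicates. The third (chr2R:9935954-9936091), at 22.84 kb between the second and the third TSS, ranked 2291 and was 138 bp wide. Peaks narrower than the usual 440 bp made up 28.6% of those at Mef2 and 50% of the 8 at the other genes. Over all IDR peaks the share was 28.3%. The replicate ranks of the third peak were 2395, 3499 and 2098. Replicate order thus varied from summit to summit, with replicate 2 strongest at the first and replicate 3 at the other two. The remaining 11 ranked from 2662 to 6852, so that Mef2 had no peak in the strongest 10% of the list. A replicate rank here is that of the strongest replicate summit within 250 bp.

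Near the first TSS the peak was of middling strength. Its summit lay 40 bp upstream of that TSS and ranked 5039, with 5343, 4669 and 4973 in the replicates. The match in replicate 3 was a stronger neighbouring summit. The closest summit of that replicate lay 9 bp away and ranked 7329. The summit deepest in the gene, at 36.08 kb, was the weakest at rank 6852. In replicate 1 it stood at 12986, outside the top list, against 5616 in replicate 2 and 6759 in replicate 3. The summit at 17.2 kb was outside the top list of replicate 2 (rank 10605, against 3820 and 4396 in replicates 1 and 3). The summit at 8.53 kb was outside that of replicate 3 (rank 9910, against 3308 and 4051). The other 11 had a top-list summit within 250 bp in all 3 replicates.

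The Mef2 summits were unevenly spaced. With summits joined when less than 1000 bp apart, they formed 9 groups. One group of 4 lay at 8.53 to 9.65 kb within 1125 bp and held the strongest peak, another of 3 lay at 3.25 to 4.08 kb within 827 bp and held the next strongest, and 7 summits stood alone. The 13 gaps between neighbours ran from 206 to 6215 bp with a median of 3288 bp. In 2 of the gaps the summits were within 250 bp of each other and their peaks overlapped, so that these may be counted from the same region. The peaks at the gap of 289 bp, in the group with the strongest peak, overlapped as well. Merging summits within 250 bp left Mef2 with 12.

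Mef2 was dense in summits for its length. Inside its span it had 2.87 summits per 10 kb, while the 369 genes as long or longer had a median of 0.493, with quartiles of 0.183 and 0.889. Of those genes 4 were denser, and 54, or 14.6%, had no summit in the span. By number of summits, 30 genes, or 0.215% of all protein-coding genes, had 14 or more, and the highest count was 34, at kirre. This number is what brought Mef2 into the list, so its place among genes is a description. The genes whose counts in the 3 top lists were closest to those of Mef2 were atos (13, 14 and 12), Tet (14, 14 and 15), NK7.1 (12, 14 and 12), Raf (15 in each) and fz (12, 15 and 14). At the same distance as Raf and fz were also hth (15, 11 and 15) and CG46385 (12, 12 and 11), which the order for ties, by IDR count and then symbol, left out of the 5. Their Euclidean distances from Mef2 over the 3 counts ran from 1.73 to 3.0.

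The strongest peaks stood at bin, zfh1 and tin rather than at Mef2. The forkhead gene bin (FBgn0045759, chr3L:6990622-6994447) had 2 summits between genes, 1400 and 1193 bp upstream of its TSS. The farther one ranked 399 in the IDR list in a narrow peak (chr3L:6989066-6989316), and its ranks in replicates 1, 2 and 3 were 384, 370 and 553. The nearer one ranked 556 with a peak of 247 bp (chr3L:6989334-6989580). Its closest replicate summits ranked 454, 569 and 748, below those of the farther one in each replicate.

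The NK homeobox gene tin (FBgn0004110, chr3R:21378977-21381970) had 1 summit, 193 bp upstream of its TSS. The peak (chr3R:21378603-21378935) was 333 bp wide and ranked 504, and 515, 559 and 522 in the replicates. All 3 replicates put it close to its rank in the IDR list. Its neighbour bap (FBgn0004862, chr3R:21388880-21390449), the NK homeobox gene that tin activates, had no summit of its own. The summit closest to its TSS was that of tin, 10096 bp away, which counts for tin at any distance limit because the tin TSS is closer. Among the full lists of 30000 entries, bap had an entry in replicate 3 alone, at rank 21435 and 2181 bp from its TSS.

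**Figure D3:**
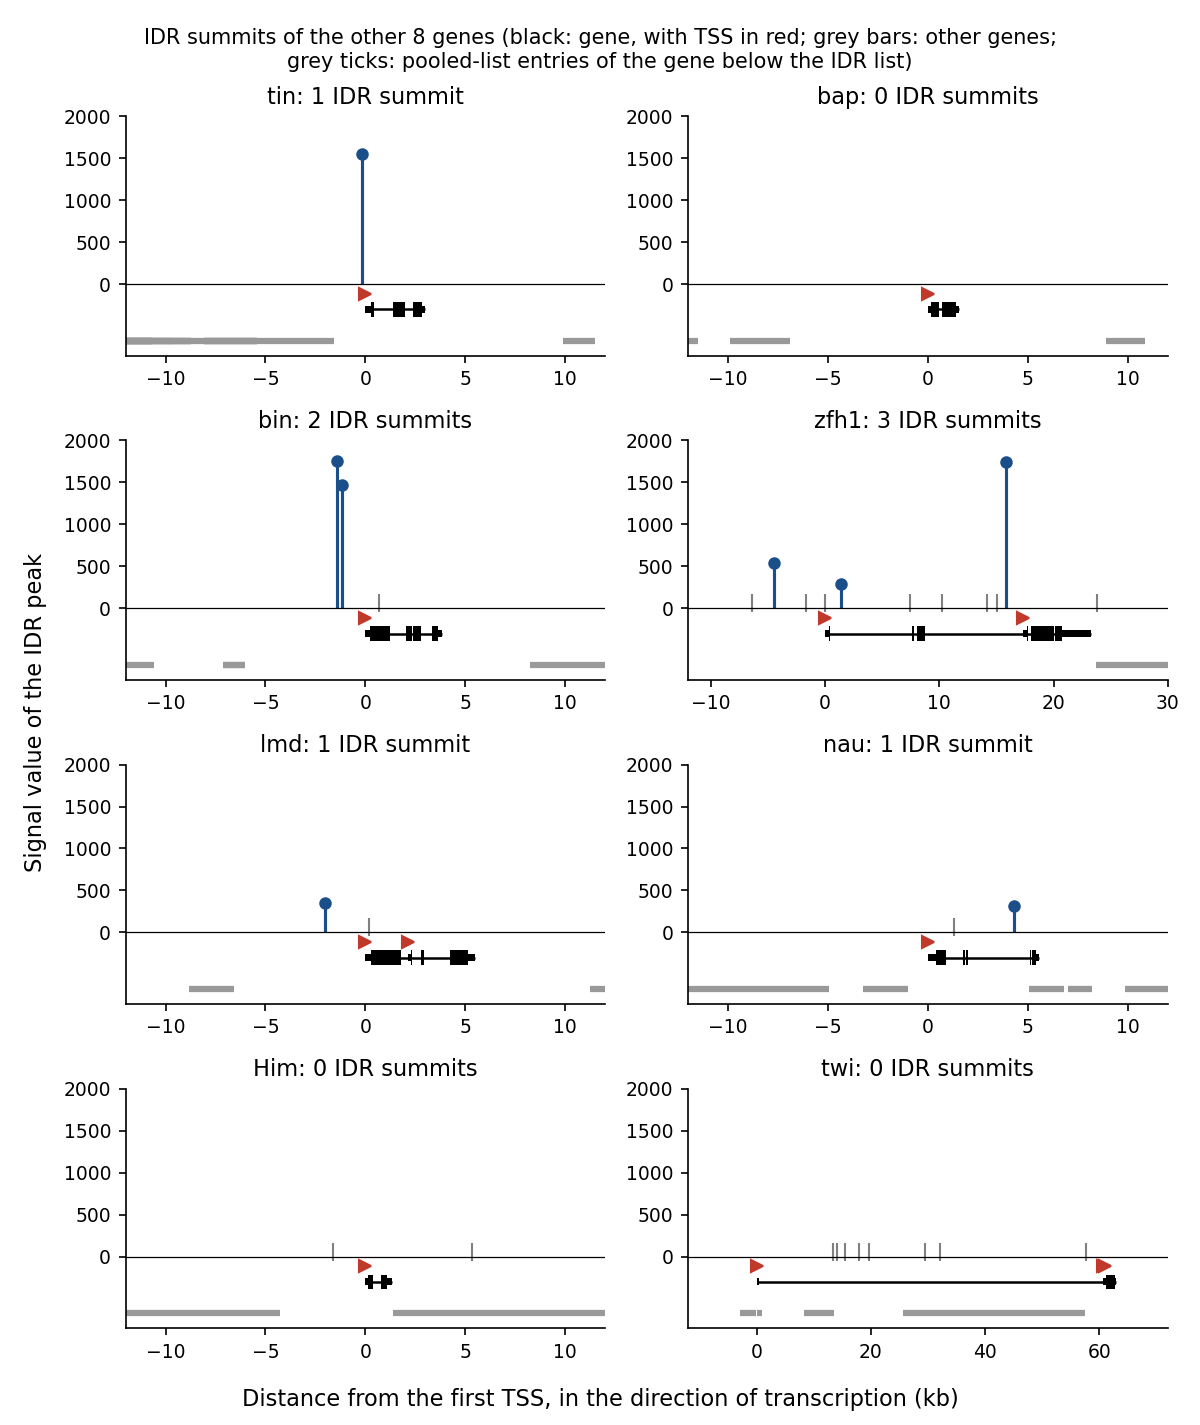
Authors' signal value of the IDR peaks (blue stems) of the other 8 genes, 1 panel a gene, against distance from the first TSS in kb, with the gene in black, its TSSs in red, other genes as grey bars and pooled-list entries below the IDR list as grey ticks. The strongest peaks of bin (1758.6), zfh1 (1737.4) and tin (1552.5) stand well above those of lmd (351) and nau (310), and bap, Him and twi have no stem.

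The zfh1 gene (FBgn0004606, chr3R:30765926-30789202) had 1 strong and 2 weaker summits. The strong one, in a peak of 306 bp (chr3R:30781629-30781934), lay in an intron 15.85 kb from the first TSS and 1479 bp upstream of the second. It ranked 413 in the IDR list and 423, 537 and 287 in the replicates. The summit 4462 bp upstream of the gene ranked 2791, with 3130, 3138 and 2474 in the replicates. In replicate 3 that match was not the closest summit, which lay 96 bp away and ranked 26273. The summit in the intron 1379 bp past the first TSS ranked 6496, with 7105, 5957 and 15439, so that it was outside the top list of replicate 3.

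The peaks of the myoblast genes lmd and nau ranked past the middle of the IDR list. The zinc-finger gene lmd (FBgn0039039, chr3R:23021222-23026713, minus strand) had a summit 2017 bp upstream of its nearest TSS, between genes. It ranked 5058, with 6932, 4287 and 5233 in the replicates. The bHLH gene nau (FBgn0002922, chr3R:23712814-23718357, minus strand) had a summit in its own intron, 4301 bp from its TSS. It ranked 5921, with 4884, 6449 and 6859 in the replicates. The nearest TSS to it was that of CG10300, at 2529 bp, so it was counted for nau only through the gene span. Both genes kept 1 summit in every top list.

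**Figure D4:**
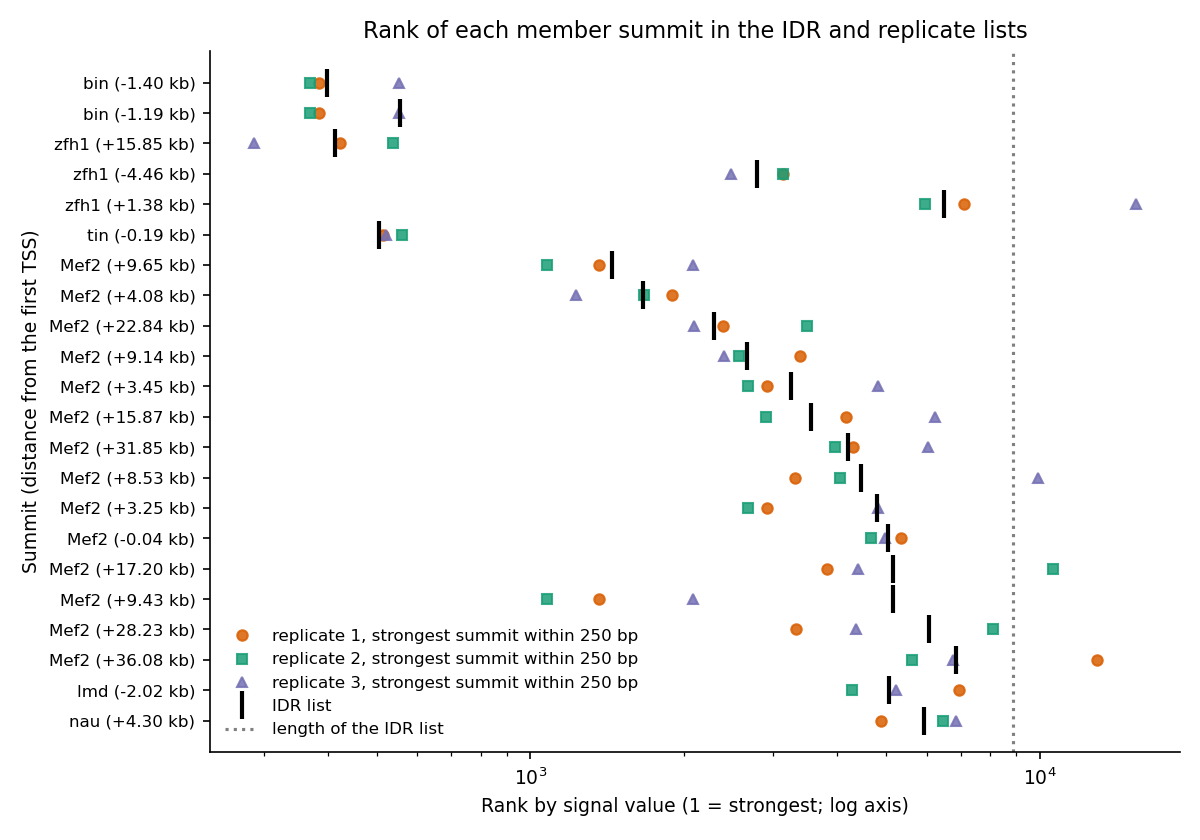
Rank of each of the 22 summits in the IDR list (black bars) and of the strongest summit within 250 bp in each replicate (coloured points), on a logarithmic axis where 1 is the strongest; the dotted line is the length of the IDR list, 8858. The farther bin summit, that of tin and the strong one of zfh1 stand at ranks 287 to 559 in every list, ahead of every Mef2 summit. Some points are those of a stronger neighbouring summit, as at the nearer bin summit and the Mef2 summit at 9.43 kb.

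At twi and Him the signal fell below the IDR list. The bHLH gene twi (FBgn0003900) spans 62952 bp of arm 2R, from 22985374 to 23048325, through 1 long transcript. Its strongest entry in the pooled list ranked 12604, past the 8858 entries that form the IDR list, and lay nearest to the TSS of CG9896. Its best ranks in the replicates were 12193, 8587 and 10313, at different positions in the span. These entries lay nearest to the TSS of CG9896 in replicates 1 and 3 and of CG42741, at 177 bp, in replicate 2. They were thus counted for twi only through its span, also the 1 inside the top list of replicate 2. The IDR summit closest to a twi TSS lay 8682 bp away, ranked 2771 and was counted for CG32834, whose TSS was closer, at 7601 bp. Him (FBgn0030900, chrX:18209427-18210741) had its best pooled entry at rank 10336, 5325 bp from its TSS in an intron of another gene. The same place ranked 6753, 17618 and 13505 in the replicates, which puts replicate 1 alone inside the top list. The IDR summit closest to the Him TSS was 16708 bp away. These entries are below the IDR list and count as no peak here.

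Most of the summits were recovered in every replicate. Of the 22 summits, 21, 21 and 20 had a top-list summit within 250 bp in replicates 1, 2 and 3, a mean of 93.9% ± 2.62 (SD, n = 3). Over all IDR summits the mean was 86.7% ± 1.4 (SD, n = 3). In all 3 replicates there was such a summit for 18 of the 22, or 81.8%, against 70.1% of all IDR summits. For Mef2 it was 11 of 14, or 78.6%, and each single replicate held 13 of the 14. Of the other 8 summits, 8, 8 and 7 were held by replicates 1, 2 and 3. The closest replicate summit was a median of 8, 12 and 10.5 bp away in replicates 1, 2 and 3. Neighbouring summits can share a match: 19 different replicate summits served the 22 in each replicate. Of the 22, 6, or 27.3%, lay within 250 bp of another IDR summit, against 14.1% of all IDR summits. With the closest replicate summit in place of the strongest, 21, 21 and 18 of the 22 were in the top lists. Replicate 3 then also lost the Mef2 summit at 3.25 kb (rank 10302) and the zfh1 summit 4462 bp upstream (rank 26273). The count by closest summit was not made over all IDR summits. The part of shared matches in the higher shares was therefore not tested. Because the IDR step used the same replicates, the shares found in replicates are a measure of spread only.

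Few of the summits lay at promoters. Within 500 bp of a TSS were 2 of the 22, or 9.09%, those of tin and of the first TSS of Mef2, against 36.1% of all IDR summits. By the gene models alone, introns held 15, or 68.2%, with 53.1% in all. Between genes lay 6, or 27.3%, with 36.1% in all, and 1 was in an untranslated exon. The 2 parts differed: introns held 12 of the 14 Mef2 summits, or 85.7%, but 3 of the other 8, or 37.5%. Of those 8, 5, or 62.5%, lay between genes. The median distance to the nearest TSS was 2858 bp, against 1352 bp over the IDR list. It was 3764.5 bp at Mef2 and 1439.5 bp at the other 8. Position is part of the rule, which takes every summit in a gene span. In rank, 4 of the 22, or 18.2%, were in the strongest 10% of the list, and all of these belonged to bin, tin and zfh1. The median rank was 4329.5 for the 14 Mef2 summits and 1673.5 for the other 8.

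By their medians the Mef2 summits were less rich in A and T than those of the other genes. In the 101 bp around the summit the median share of A and T was 61.9% at Mef2, with a range of 44.6% to 74.3%. It was 61.4% in the Mef2 flanking windows, some of which cover a neighbouring summit. At the other 8 summits it was 70.8%, from 56.4% to 81.2%, and 54.0% in the flanks. Over all IDR summits it was 65.3%, and 57.4% in the flanks. The core TAAT lay at 9 of the 14 Mef2 summits and at 7 of the other 8. The ranges overlap and the summits are few.

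Short motifs, among them sites of factors that act in mesoderm, were counted on either strand within 50 bp of the 22 summits. The forkhead core TGTTTA, of the kind bin recognises, was at 7, or 31.8%, and in 20.5% of the 44 windows flanking these summits. Over all IDR summits it was at 15.1%, and in 10% of their flanks. The hexamer ATATTA was at 8, or 36.4%, and in 20.5% of the members' flanks, with 18% and 8.35% over all IDR summits and their flanks. The A/T-rich TATTTAT, part of the site of Mef2 itself, was at 4, or 18.2%, and in 11.4% of the members' flanks, with 11.6% and 6.8% over the IDR list. The E-box CATATG, bound by Twist, was at 1 summit, that of tin, or 4.55%, against 4.14% of all IDR summits. The E-box CAGCTG was at 1 (4.32% in all) and the GATA core GATAAG at 1 (6.15% in all). The repeat GAGAG was at 2, or 9.09%, against 12.0%. The palindrome TAATTA was at 2, or 9.09%, against 9.04%, and in 11.4% of the members' flanks. The site TCAAGTG, bound by Tinman, was at 0 summits, against 1.77% of all IDR summits. It was in 4 of the 44 flanks, or 9.09%, against 1.9% of the flanks of all IDR summits. The motifs rich in A and T overlap in their letters, and the part of composition in their counts was not tested. The median share of A and T was 64.4% at the 22 summits and 65.3% at all IDR summits. In the flanks it was 58.4% and 57.4%. Some of the members' flanks, at Mef2, cover a neighbouring summit.

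Other genes of mesoderm and muscle were taken by function. Among 19 further mesoderm and heart factors 8, or 42.1%, had a summit by the same rule, and the top lists gave 38.6% ± 3.04 (SD, n = 3). When only peaks supported by replicates 1 and 2 were kept, 5 had one. The strongest were at how, an RNA-binding protein gene of muscle and tendon (rank 678, 3 summits), the T-box gene org-1 (rank 889), Doc2 (rank 2035, 3 summits), Doc1 (rank 2973) and the LIM-homeobox gene tup (rank 4581). Among 18 muscle identity factors 8, or 44.4%, had a summit, and the top lists gave 50% ± 5.56 (SD, n = 3). The homeobox cofactor gene hth had 15 summits with a best rank of 1117, and Poxm (rank 1862), so (rank 2909), mirr (rank 4366) and ko (rank 5671) followed. The peak of so had no match in replicate 2, against ranks 1751 and 3725 in replicates 1 and 3. The genes of this list had a median span of 15266 bp.

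Of 16 signalling genes of the mesoderm 14, or 87.5%, had a summit in the IDR list. The top lists gave 75%, 81.2% and 75%, a mean of 77.1% ± 3.61 (SD, n = 3), while the 9 genes stood at 77.8%, 77.8% and 66.7%. The EGF ligand gene spi had the strongest peak (rank 259, 3 summits), before the receptor gene N (rank 786), the FGF ligand gene ths (rank 862, 7 summits), jeb, which encodes the ligand of Alk in visceral mesoderm (rank 1464), and stumps, of the FGF pathway (rank 2535). The N peak lay nearest to the TSS of CG18508. Of 15 myoblast fusion genes 9, or 60%, had a summit, and the top lists gave 64.4% ± 3.85 (SD, n = 3). The founder cell adhesion gene kirre led with rank 261 and 34 summits in a span of 394149 bp. That peak lay 153 bp from the TSS of Syx4, inside the kirre span. After kirre came rols (rank 1741), mbc (rank 1784), siz (rank 1823) and rst (rank 3755). The rst peak lay nearest to the TSS of CG3603, at 3752 bp, and was counted for rst only through its span.

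Of 26 muscle structural genes 12, or 46.2%, had a summit. The top lists gave 57.7%, 50% and 38.5%, a mean of 48.7% ± 9.68 (SD, n = 3), with replicate 3 the lowest. Msp300, which anchors muscle nuclei, had the strongest peak (rank 173, 5 summits), before Zasp52 (rank 1050), the actin gene Act57B (rank 1649), the titin-like gene sls (rank 1655) and the integrin gene mys (rank 2398). Over the 94 genes of the 5 lists, 51, or 54.3%, had a summit. Their median span was 11095 bp, against 2166 bp for all protein-coding genes and 4518 bp for genes with a summit. The part of length in these shares was not tested.

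**Figure D5:**
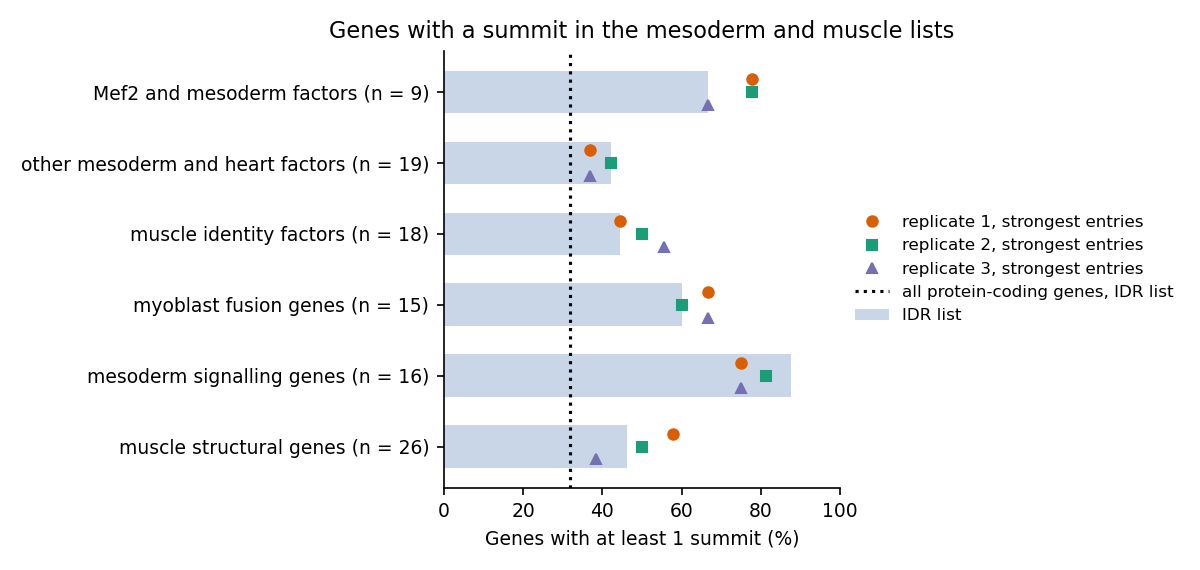
Percent of genes with at least 1 summit among the 9 genes and in the 5 other mesoderm and muscle lists, in the IDR list (bars) and in each replicate top list (points). The dotted line is the share of all protein-coding genes in the IDR list, 31.9%. In the IDR list signalling genes stand highest at 87.5%, and the further mesoderm and heart factors lowest at 42.1%.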

How the data were processed

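The authors deposited peak lists on dm6 for each of 3 replicates, for their pooled reads and after the IDR step, per the deposited notes. Peaks carry the authors' signal value, whose scale is not stated, and its order within a list was used for every rank. The values themselves are shown only for peaks of the IDR list. A deposited column, taken to hold −log10 q-values, served as an alternative ranking. It stands at a top value of 3.99 in 4891 IDR peaks. The summit is the authors' deposited offset from the peak start. Aligner, peak caller and IDR threshold were not given in the sources used here. Without read numbers, library depth is unknown and counting errors are not given. Lists on dm3 were not used.

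Genes came from Ensembl release 115, and all 9 genes had the same coordinates in the RefSeq gene table. Work was done in Python 3.11.15 with pandas 2.3.3, numpy 2.4.6 and matplotlib 3.10.9, and the counting steps were tested on simulated data. The members, lists and motifs were chosen with earlier results of these data known, and no test was run. Genes named are the members, the neighbours of their summits, the 5 genes most like Mef2 and, in each other list, the 5 with the strongest peak. The list symbols schizo, a synonym of siz, and Dl matched no gene.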

Additional observations from a re-analysis of the deposited data

How the results depend on the processing

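Of 189 alternative values for 34 results, 162 stayed within the limits set for a move and 27 did not. With the first 50% of the IDR list, the 9 genes had 12 summits, the further mesoderm and heart factors had 4 genes with a summit, the muscle identity factors 4 and the signalling genes 7; Mef2 then had 7 summits, and lmd and nau 0. Merging summits within 250 bp left bin with 1, and ignoring gene spans left nau with 0. The mean share of summits found in the replicate top lists was 87.9% with a match within 100 bp, 100% over whole lists, and 90.9% with the closest replicate summit, an alternative chosen after seeing the data. In windows of 25 bp on each side, TAATTA was at 0 summits, CATATG at 0, CAGCTG at 0, GATAAG at 0 and ATATTA at 4. In windows of 100 bp, TCAAGTG was at 1 summit, CATATG at 2, CAGCTG at 2, GATAAG at 2 and GAGAG at 5. Ranking by the q-value column tied Mef2, tin, bin and zfh1 at rank 1.

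Keeping IDR peaks supported by the other replicates when each was left out in turn, the genes with a summit stayed at 6, their summits ran from 19 to 20, Mef2 had 12 each time and zfh1 2 to 3. Genes with a summit ran from 5 to 6 for heart factors (5 without replicate 3), stayed at 6 for identity factors, and ran from 10 to 12 for signalling, 10 to 12 for structural and 7 to 8 for fusion genes. The share found in the replicates ran from 93.2% to 95.5%, and that within 500 bp of a TSS from 10% to 10.5%. No paired analysis was possible because there is 1 group.

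With 22 summits, 1 line and no control analysed here, counts of 1 or 2 carry little weight, and depth is unknown.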
